A study of Rattus norvegicus with 4 samples.

Results

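Complexins and the SNARE proteins carry out the last step of neurotransmitter release, the fusion of a synaptic vesicle with the presynaptic membrane. The members described here were 8 genes, the complexins Cplx1 and Cplx2, the membrane SNAREs Stx1a and Snap25, the vesicle SNAREs Vamp1 and Vamp2, and the disassembly factors Nsf and Napb. They were found as every probe set whose platform annotation gave exactly 1 gene symbol, that of a member, which were 15 of 31042 probe sets other than Affymetrix controls. The array named 14217 genes in this way. No probe set listed a member among several symbols.

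The samples were whole hippocampi of male Wistar rats aged 16 months. Stressed rats had gone through the chronic unpredictable mild stress battery, a changing series of mild stressors, for 4 weeks from an age of 15 months, and nonstressed controls of the same age were kept under standard housing with free food and water. Each group had 2 Affymetrix rat genome arrays, and each array carried total RNA pooled from 3 rats. Whether the pools within a group came from different rats is not given in the sources used here, so a p measures only the spread between pools, which may be technical.

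In a synaptic vesicle fusion event the SNARE proteins syntaxin-1 and SNAP-25 on the presynaptic membrane and synaptobrevin (VAMP) on the vesicle zip into 1 bundle that pulls the membranes together. Complexins bind the assembled bundle, hold it in check and prepare it for the calcium signal read by synaptotagmin. After fusion the ATPase NSF, recruited by SNAP adaptor proteins such as beta-SNAP, pulls the bundle apart so that its parts can be used again. In the rodent hippocampus complexin 2 is known mainly from principal neurons and complexin 1 from interneurons.

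The Cplx2 transcript was much lower in stressed rats than in nonstressed controls, whereas single probe sets of Cplx1, Snap25, Stx1a, Nsf and Napb were higher by small amounts. The log2 fold change of Cplx2 was -1.47, and those of the 5 higher probe sets were 0.16 to 0.23. The tested probe sets of Vamp1 and Vamp2 did not pass. Probe sets were tested where 2 or more arrays reached a signal of 100, as was so for 12 of the 15 member probe sets. The test was that of limma on log2 signals, stressed minus control, with p adjusted after Benjamini and Hochberg over all 14791 tested probe sets. At adjusted p under 0.05, 5 of the 12 member probe sets rose and 1 fell. Over all tested probe sets, 12% rose and 11.8% fell. Among tested probe sets with a mean signal of at least 1000, 17.9% rose and 15.6% fell. The thresholds of the study were a difference of at least 2-fold and an unadjusted p under 0.05, here the p of limma. Under them Cplx2 was lower, as were 1.38% of all tested probe sets, and no member was higher, against 0.216% of all. With the p of the methods' t-test the member counts were the same, and 192 of all 14791 were lower and 22 higher. At an unadjusted limma p under 0.05 alone, 7 of the 12 member probe sets were higher and 2 lower, against 3019 and 2597 of all 14791. The median log2 fold change was 0.17 over the 12 probe sets and 0.02 over all tested probe sets.

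The arrays were alike in brightness. Their median signals were 80.2 and 82.3 in stressed rats and 80.9 and 79.6 in nonstressed controls, and 46.4% to 46.8% of probe sets reached a signal of 100. Of the markers of hippocampal principal cells (Prox1, Wfs1, Neurod6 and others) 9 of 9 annotated genes had a tested probe set, as had 7 of 8 for thalamus and 7 of 8 for choroid plexus, so passing the signal filter does not tell these tissues apart. Signals are on the scale of each probe set, so levels are compared between groups and not between probe sets.

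**Figure D1:**
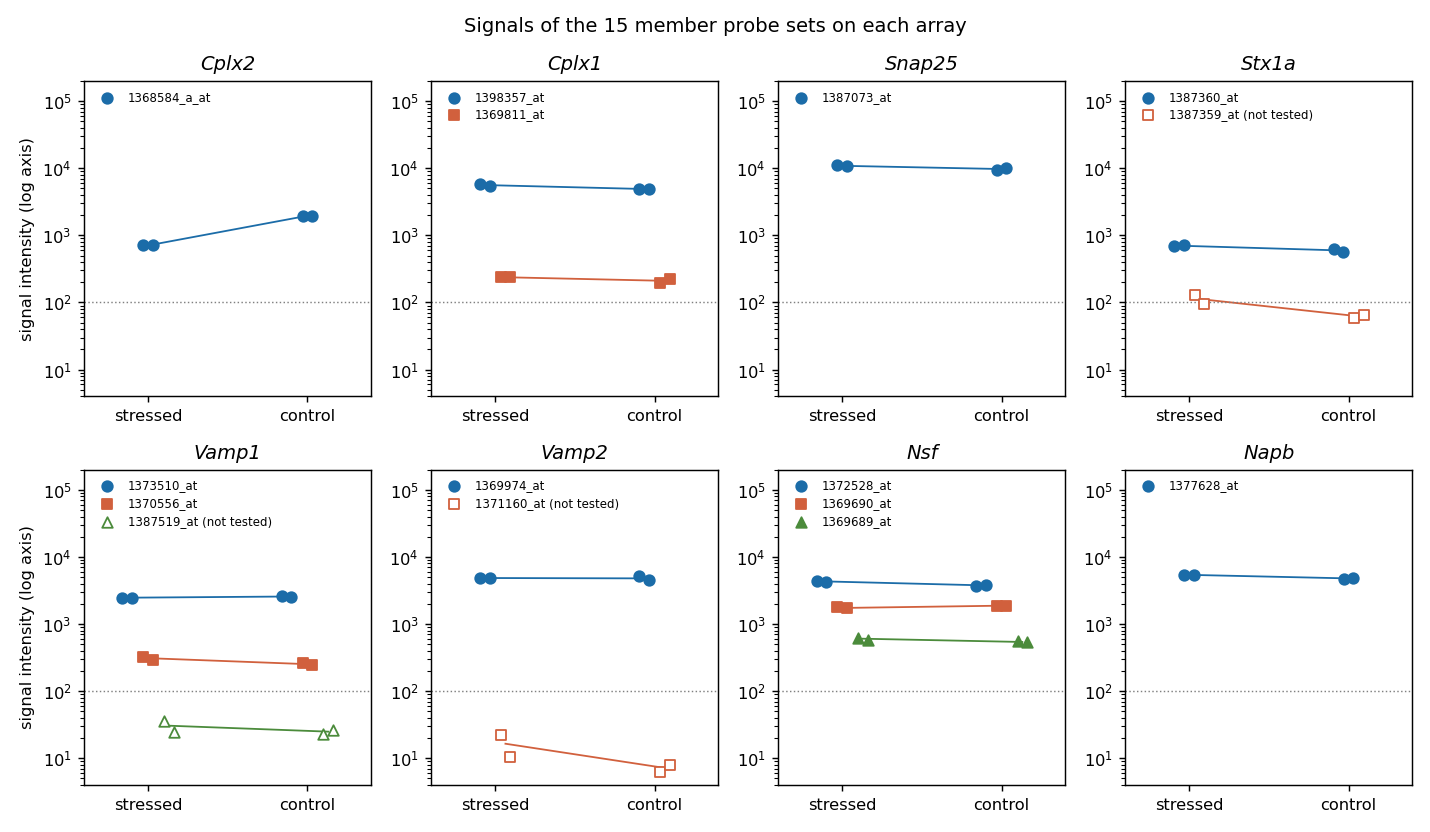
Signal intensity on a log axis for each member probe set, with a point for each array, stressed on the left and control on the right, and lines joining group means. Open symbols mark the 3 probe sets that were not tested, and the dotted line marks the signal of 100. Cplx2 had signals of 707.9 and 707.2 in stressed rats and 1956.7 and 1964.2 in nonstressed controls, the widest relative gap among the tested member probe sets.

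Cplx2 encodes complexin 2. Its only probe set, 1368584_a_at, had signals of 707.9 and 707.2 in stressed rats, against 1956.7 and 1964.2 in nonstressed controls. Both stressed arrays lay far below both control arrays, and the arrays of a group nearly coincided. The mean was 707.55 ± 0.495 in stressed rats and 1960.45 ± 5.30 in nonstressed controls (SD, n = 2 arrays each). The log2 fold change was -1.47 (standard error 0.05, 95% confidence interval -1.58 to -1.36, limma adjusted p = 5.37e-06), a signal in stressed rats 0.361 times that of the controls. Of the 14791 tested probe sets, 74 had a lower log2 fold change and 5 had a smaller p. The members were chosen with earlier results of these same arrays known, so its fall is not independent evidence. In bulk tissue fewer cells of a type and less RNA per cell cannot be told apart. Markers of principal cells summed to 18075 and 18243 in stressed rats and to 18845 and 18776 in nonstressed controls over 9 genes, 0.965 times the control level. Over all 15 tested probe sets of these 9 genes 5 fell, 1 of them by at least 2-fold, and 1 rose at adjusted p under 0.05 by limma, with log2 fold changes from -1.24 to 0.32. At the brightest probe set of each gene 2 fell and none rose (2 higher and 2 lower at unadjusted p under 0.05). Of all tested probe sets 11.8% fell and 12% rose. The part of these markers in the result was not tested.

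Cplx1 encodes complexin 1, and both of its probe sets were a little higher in stressed rats. The brighter one, 1398357_at, had signals of 5797.2 and 5456.7 in stressed rats and 4856.0 and 4966.7 in nonstressed controls. The groups did not overlap, and the log2 fold change was 0.20 (standard error 0.05, 95% confidence interval 0.08 to 0.31, limma adjusted p = 0.0230). The dimmer one, 1369811_at, had signals of 239.3 and 235.8 in stressed rats and 196.7 and 223.3 in nonstressed controls. Its log2 fold change of 0.18 was of like size with a wider interval, -0.07 to 0.43, and did not pass (limma adjusted p = 0.265). Markers of interneurons summed to 9085 and 8779 in stressed rats and to 9708 and 9889 in nonstressed controls over 9 genes. Of these 9 genes 3 fell, 1 of them by at least 2-fold with a log2 fold change of -1.41, and none rose by limma. Of all tested probe sets 11.8% fell and 12% rose. At unadjusted p under 0.05 by limma none of the 9 was higher and 4 were lower, against 3019 and 2597 of all 14791. The part of these markers in the values of Cplx1 was not tested.

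The 2 complexins were set against each other within each array. The log2 signal of Cplx2 minus that of Cplx1 at 1398357_at was -3.03 and -2.95 in stressed rats and -1.31 and -1.34 in nonstressed controls. The log2 fold changes of Cplx2 and Cplx1 thus differed by -1.67, while these within-array differences had an SD of 0.06 in stressed rats and 0.02 in nonstressed controls. The 2 groups did not overlap, but an exact two-sided permutation test of 2 arrays against 2 gave p = 0.33, which is the smallest it can give. This was 1 of 6 pairs of probe sets compared in this way, and with that limit no adjustment over the pairs could bring any of them past a threshold.

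The bases just before the annotated transcription starts of both complexin genes are shown because the 2 paralogs had log2 fold changes of opposite sign. The sequences are those of RefSeq for the assembly GRCr8, the 250 bases before the start, read 5′ to 3′ on the strand of the gene, with capitals marking each match to the GC box GGGCGG on either strand. The Cplx2 stretch is chr17:10236754-10237003 on the minus strand and the Cplx1 stretch is chr14:1328823-1329072 on the plus strand.
Cplx2: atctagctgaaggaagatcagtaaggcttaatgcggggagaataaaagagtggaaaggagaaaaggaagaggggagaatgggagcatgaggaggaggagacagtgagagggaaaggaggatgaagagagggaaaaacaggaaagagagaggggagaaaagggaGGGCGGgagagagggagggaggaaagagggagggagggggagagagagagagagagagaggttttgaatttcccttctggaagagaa
Cplx1: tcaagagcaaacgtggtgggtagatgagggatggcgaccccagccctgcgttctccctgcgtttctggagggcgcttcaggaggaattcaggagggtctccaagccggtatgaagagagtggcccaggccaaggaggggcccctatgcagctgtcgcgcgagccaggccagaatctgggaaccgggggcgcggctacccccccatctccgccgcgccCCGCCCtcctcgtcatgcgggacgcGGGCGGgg
The Cplx2 stretch has 50.8% G and C and 1 GC box, and the Cplx1 stretch has 68.0% G and C and 2 GC boxes. Stretches of this kind were available for 7 of the 8 members, all but Snap25, using the first promoter listed for each gene. All 7 held a GC box, as did 30.5% of 33469 rat promoters of the same length. The members ran from 50.4% G and C in Vamp1 to 69.2% in Nsf, against a median of 51.2% over all promoters. Matches to GGGCGG depend on this content, and promoters of like content were not compared. The cyclic AMP response element TGACGTCA was found in 1 member, Vamp1, against 1.59% of all promoters. The E-box CACGTG was found in 1 member, Nsf, against 5.59%. These are letter matches on both strands, not measured binding.

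The membrane SNAREs had higher signals in stressed rats. Snap25 encodes SNAP-25, which gives the fusion bundle a pair of its helices. Its probe set 1387073_at had signals of 11119 and 10679 in stressed rats, against 9502.3 and 9992.5 in nonstressed controls. Both stressed arrays lay above both control arrays, and the rise of 0.16 on the log2 scale (standard error 0.05, 95% confidence interval 0.05 to 0.28, limma adjusted p = 0.0499) lay at the edge of the threshold. Stx1a encodes syntaxin-1A, which anchors the bundle in the presynaptic membrane. Its probe set 1387360_at had signals of 687.5 and 716.6 in stressed rats, against 623.0 and 571.4 in nonstressed controls, again with no overlap. The log2 fold change was 0.23 (standard error 0.07, 95% confidence interval 0.08 to 0.39, limma adjusted p = 0.0409). The other Stx1a probe set, 1387359_at, was not tested, since only 1 array reached a signal of 100. Its signals were 130.8 and 94.1 in stressed rats and 58.0 and 66.1 in nonstressed controls, also higher on both stressed arrays.

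The vesicle SNAREs did not pass the test. Vamp2 encodes synaptobrevin 2, the main vesicle SNARE of forebrain synapses. Its probe set 1369974_at had signals of 4792.0 and 4927.9 in stressed rats and 5128.6 and 4471.9 in nonstressed controls. The stressed arrays lay between the control arrays, and the log2 fold change was 0.02 with a 95% confidence interval of -0.13 to 0.17 (limma adjusted p = 0.843). Without control replicate 2 it was -0.08 and without control replicate 1 it was 0.12, neither past the threshold. Among the tested member probe sets this was the single one whose groups overlapped. The other Vamp2 probe set, 1371160_at, was dim, with signals of 22.4 and 10.5 in stressed rats and 6.3 and 8.0 in nonstressed controls, and was not tested.

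Vamp1 encodes synaptobrevin 1, which is best known from brainstem and spinal cord synapses, and its 2 tested probe sets differed in sign. The brighter one, 1373510_at, had signals of 2479.9 and 2466.9 in stressed rats and 2598.5 and 2550.4 in nonstressed controls, a log2 fold change of -0.06 (95% confidence interval -0.16 to 0.04, limma adjusted p = 0.365). The dimmer one, 1370556_at, had signals of 324.5 and 296.2 in stressed rats and 259.8 and 245.2 in nonstressed controls. Its log2 fold change of 0.30 was the highest of any tested member probe set, with a 95% confidence interval of 0.07 to 0.52, but it did not pass (limma adjusted p = 0.0587). Within arrays the difference between their log2 fold changes was 0.35 (exact two-sided permutation p = 0.33, the smallest possible). The third probe set, 1387519_at, had signals of 36.1 and 25.0 in stressed rats and 23.2 and 26.6 in nonstressed controls, which overlapped, and was not tested.

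The genes of the disassembly step were higher at 2 probe sets. Napb encodes beta-SNAP, the brain form of the adaptor that brings NSF to the used SNARE bundle. Its probe set 1377628_at had signals of 5355.6 and 5480.9 in stressed rats, against 4773.9 and 4815.4 in nonstressed controls. The groups did not overlap, and the log2 fold change was 0.18 (standard error 0.04, 95% confidence interval 0.08 to 0.27, limma adjusted p = 0.0219). Nsf encodes the ATPase itself, and its 3 tested probe sets did not all have the same sign. The brightest, 1372528_at, had signals of 4390.5 and 4287.6 in stressed rats and 3716.4 and 3851.5 in nonstressed controls, a log2 fold change of 0.20 (standard error 0.04, 95% confidence interval 0.10 to 0.30, limma adjusted p = 0.0165). The dimmest, 1369689_at, had signals of 622.5 and 587.3 in stressed rats and 550.0 and 531.5 in nonstressed controls, a log2 fold change of 0.16 that did not pass (limma adjusted p = 0.113). The third, 1369690_at, had the opposite sign, with signals of 1767.5 and 1709.0 in stressed rats and 1875.9 and 1886.1 in nonstressed controls. Its log2 fold change was -0.11 (95% confidence interval -0.22 to -0.01, limma adjusted p = 0.108), and within arrays it lay 0.31 below that of 1372528_at (difference -0.31, exact two-sided permutation p = 0.33, the smallest possible).

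**Figure D2:**
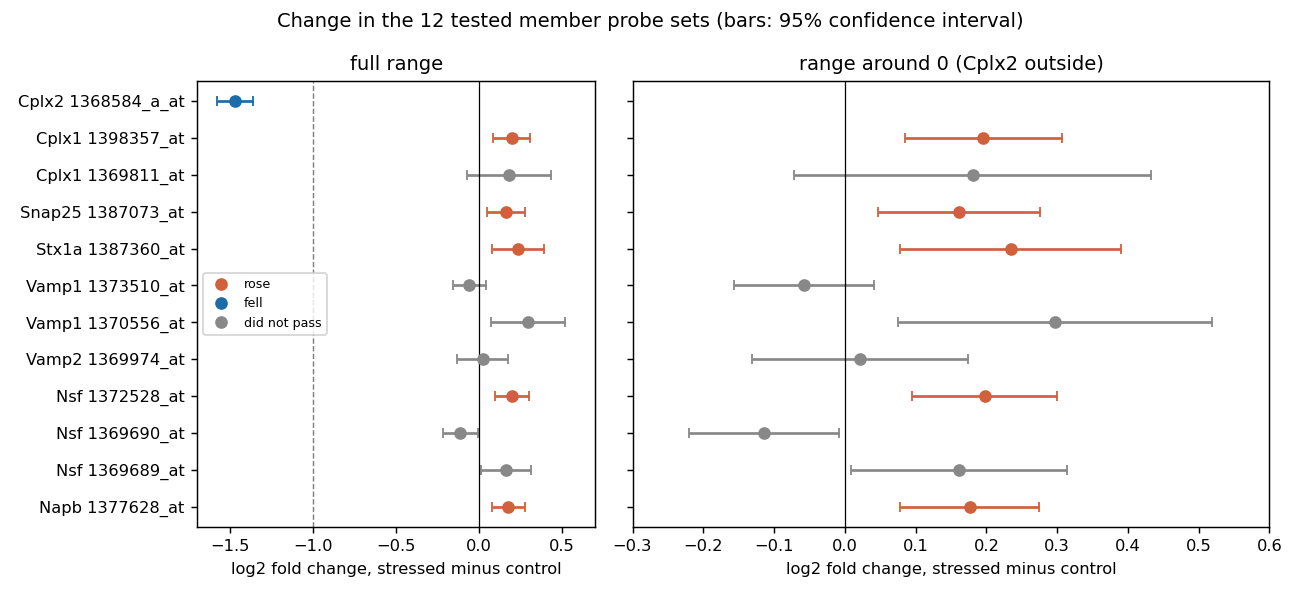
Log2 fold change (stressed minus control) of the 12 tested member probe sets with 95% confidence intervals from limma, over the full range (left, with a dashed line at a 2-fold fall) and around 0 (right, where Cplx2 lies outside). Orange points rose and the blue point fell at adjusted p under 0.05, and grey points did not pass. Cplx2 stood at -1.47, and the other 11 lay between -0.11 and 0.30.

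Of the 12 tested member probe sets, 8 were higher on both stressed arrays than on both control arrays and 3 were lower on both, against 34.9% and 29.5% of all tested probe sets. These gaps were mostly narrow, and the calls of the small rises depended on the settings of the comparison. Without an intensity trend in the moderation of limma none of the 5 rises passed. In that setting 5 member probe sets were higher at unadjusted p under 0.05, against 2774 of all 14791 tested. The methods' t-test likewise called none after Benjamini-Hochberg adjustment. By it 2 member probe sets were higher at unadjusted p under 0.05, against 1870 of all 14791. After each array was centred on its median, 1 passed, that of Stx1a. With no filter on dim probe sets 1 passed, that of Nsf. None passed without stressed replicate 1, without control replicate 1 or without control replicate 2, and 1, that of Cplx1, without stressed replicate 2. Each such fit rests on 3 arrays, with less power. The rise of Snap25 passed in 1 of 14 alternatives, those of Cplx1, Stx1a and Nsf in 6 each and that of Napb in 5. The fall of Cplx2 passed in all 14 alternatives, with log2 fold changes from -1.49 to -1.41 and an adjusted p of 7.31e-08 to 0.0278.

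**Figure D3:**
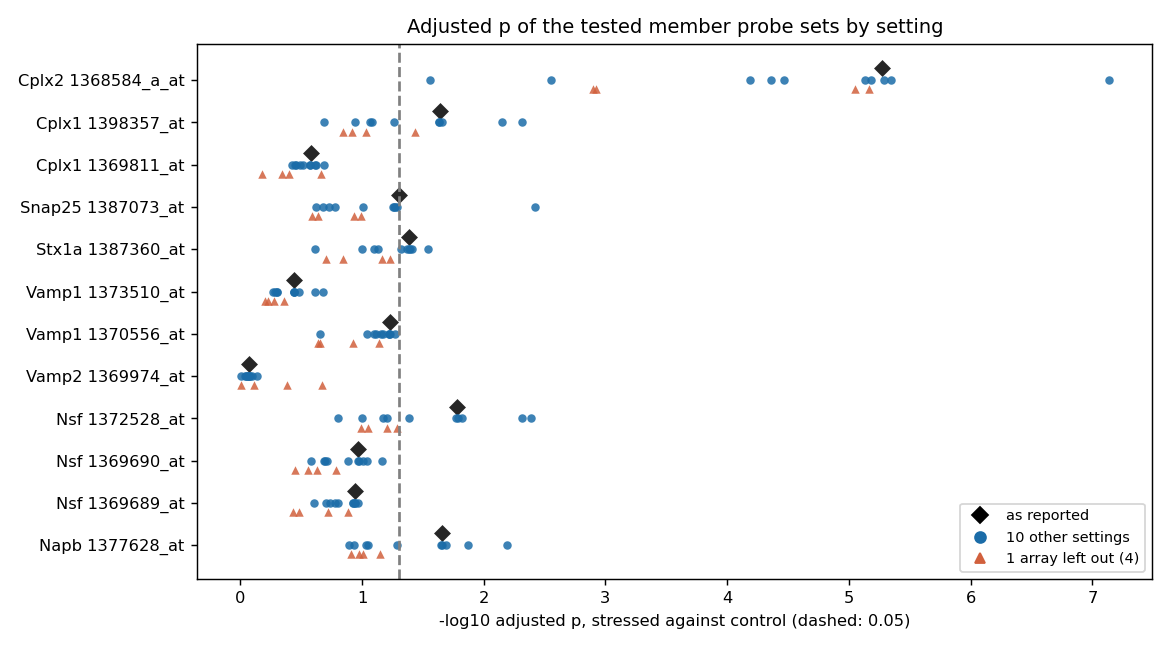
Adjusted p on a -log10 scale for each tested member probe set, as reported (black diamonds), under 10 other settings (blue circles) and with 1 array left out (orange triangles, 4 each). The dashed line marks an adjusted p of 0.05. Cplx2 lay past the line in every setting shown, and each of the 5 rises fell short of it in at least 8 of 14 alternatives.

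Other genes of the fusion pathway showed both rises and falls, none of them 2-fold. The list of other SNARE proteins held 33 genes, of which 28 were annotated and 24 tested, with 31 probe sets. At adjusted p under 0.05, 1 of these probe sets rose, 6 fell and 24 did not pass, which is 3.23% rising and 19.4% falling against 12% and 11.8% of all tested probe sets. The median log2 fold change was -0.04. Use1, a SNARE of the endoplasmic reticulum, had signals of 1135.7 and 1138.5 in stressed rats and 1476.0 and 1434.5 in nonstressed controls, a log2 fold change of -0.36 (limma adjusted p = 0.00215). It passed in each of the 4 removals of an array. Stx8, of late endosomes, fell by 0.32 on the log2 scale, and Bet1, of traffic from the endoplasmic reticulum to the Golgi, fell by 0.31 at the brighter of its 2 probe sets. Vamp4, of the trans-Golgi network, fell by 0.19 at 1 of its 2 probe sets, the other lying at 0.00. Vamp8, of endosomes, fell by 0.31 and Vamp5, best known from muscle, by 0.48, both at their only tested probe set. The calls of Vamp4, Vamp8 and Vamp5 were lost in each of the 4 removals, that of Stx8 in all but the removal of stressed replicate 1 and that of Bet1 in all but the removal of stressed replicate 2.

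Sec22b, which acts between the endoplasmic reticulum and the Golgi, was the SNARE gene that rose, with signals of 2034.0 and 2006.7 in stressed rats and 1719.1 and 1583.8 in nonstressed controls. The log2 fold change was 0.29 (limma adjusted p = 0.00760), and its dimmer probe set lay at -0.01 (limma adjusted p = 0.949). The list of fusion regulators held 32 genes, of which 26 were annotated and 18 tested, with 26 probe sets. Of these 3 rose and none fell by limma, which is 11.5% rising against 12% of all tested probe sets. At unadjusted p under 0.05 there were 4 higher and 3 lower, against 3019 and 2597 of all 14791 tested. The median log2 fold change was 0.05. Stxbp5, which encodes tomosyn, a brake on SNARE assembly, had signals of 578.0 and 546.3 in stressed rats and 440.2 and 378.7 in nonstressed controls, a log2 fold change of 0.46 (limma adjusted p = 0.00928). Its other probe set, at 0.17, did not pass. Napa, which encodes alpha-SNAP, the close relative of beta-SNAP, rose by 0.18. Dnajc5, which encodes a vesicle chaperone of SNAP-25, rose by 0.32 at its dimmer probe set, while the brighter one lay at -0.06. The call of Napa was lost in each of the 4 removals of an array, that of Dnajc5 in all but the removal of stressed replicate 1. Of the 4 removals, only that of control replicate 2 cost Sec22b and Stxbp5 their calls, at log2 fold changes of 0.23 and 0.35. By the methods' t-test neither passed (adjusted p = 0.187 and 0.217). Without an intensity trend Sec22b did not pass either (limma adjusted p = 0.0594).

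**Figure D4:**
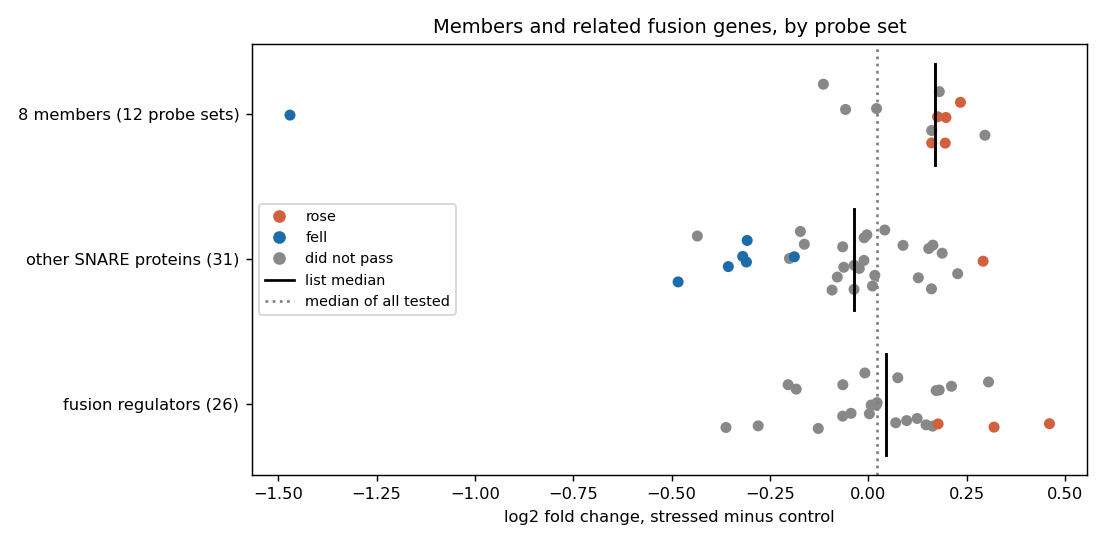
Log2 fold change (stressed minus control) of each tested probe set of the members and of the 2 lists of related genes, with black lines at the list medians (0.17, -0.04 and 0.05) and a dotted line at the median of all tested probe sets, 0.02. Points are spread vertically only to separate them, and colours mark the calls at adjusted p under 0.05. Cplx2 at -1.47 lies apart from every probe set of the related lists, which span -0.48 to 0.46.

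The probe sets whose pattern over the 4 arrays was most like that of Cplx2 were ranked by the root mean square distance between log2 signals centred on each probe set's own mean. The nearest with 1 gene symbol were Rgs7bp (distance 0.03), Elavl2 (0.04), Swi5 (0.04), Spag9 (0.05) and Zyg11b (0.06), with log2 fold changes from -1.51 to -1.41. Rgs7bp, which encodes a binding protein of RGS proteins, had signals of 216.1 and 220.7 in stressed rats and 620.9 and 627.1 in nonstressed controls. Elavl2, which encodes a neuronal RNA-binding protein, had signals of 750.6 and 777.6 in stressed rats and 2065.8 and 1998.1 in nonstressed controls. With 4 arrays in 2 groups this likeness is mainly a like fold change and a like tightness of the replicates.

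Markers of other cells moved between the groups as well, and their part in the values of the members was not tested. Summed over the brightest probe set of each gene, markers of neurons in general stood at 41845 and 41894 in stressed rats and 37902 and 38235 in nonstressed controls (10 genes, of which 4 rose and 1 fell). Those of astrocytes were 1.12 times, of endothelial cells 1.17 times and of choroid plexus 1.24 times the control level, and those of oligodendrocytes 0.960 times and of microglia 0.933 times. Thalamic markers overlapped between the groups, at 2191 to 2316 in stressed rats and 2157 to 2225 in nonstressed controls. At the brightest probe set none of the 7 thalamic genes rose or fell. Of all 9 tested thalamic probe sets 1 rose, with a log2 fold change of 1.08, and none fell. Of choroid plexus markers 5 of 7 rose, of endothelial markers 3 of 8, of microglial markers 1 of 7 rose and 2 fell, and of astrocyte and of oligodendrocyte markers 1 of 9 rose and 1 fell in each list. Over all tested probe sets 12% rose and 11.8% fell. Sums give most weight to bright genes. The median log2 fold change was 0.75 for choroid plexus, with a highest value of 1.20, and 0.32 for endothelial cells. At 2-fold and unadjusted p under 0.05, 2 of the 7 choroid plexus markers were higher, against 0.216% of all tested probe sets. Over all tested probe sets in place of the brightest, 5 of neurons rose and 2 fell, 1 of astrocytes rose and 3 fell, 3 of oligodendrocytes rose and 3 fell, 1 of microglia rose and 3 fell, and the lowest log2 fold changes were -1.81 for neurons, -1.30 for astrocytes and -1.27 for microglia. The markers Cx3cr1, Itgam, Pecam1, Kl and Zic1 did not reach the signal filter.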

How the data were processed

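Pooled hippocampal RNA was hybridized to Affymetrix arrays by the authors, whose signal intensities came from GCOS 1.4 at a target value of 300. The intensities were used as deposited, on a linear scale, with no further normalization, and the file gives no detection calls. Zeros were set to 0.1 before log2. The 57 control probe sets were left out. Probe sets with 1 gene symbol numbered 20826 of 31042, with several 436 and with none 9780, and 20758 of them were matched by gene identifier to a RefSeq table (GRCr8), used for names. All 14791 tested probe sets entered 1 fit of stressed minus control (limma 3.58.1, R 4.3.3, intensity trend, no block). The number of arrays limits the precision.

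The members and gene lists were chosen with earlier results of these data known. Named related genes were those called among the 10 smallest adjusted p in each direction, and genes like Cplx2 were the nearest by centred log2 signals. Tables and figures used python 3.11.15, pandas 2.3.3, numpy 2.4.6, scipy 1.17.1 and matplotlib 3.10.9.

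The alternatives were quantile normalization, median centring, 3 other filters (none, mean signals from 100, 2 arrays from 200), an offset of 50, no intensity trend, the methods' t-test, a replicate block, removal of each array and 1 probe set per gene. The crossed block, the threshold of 1000 for bright probe sets and the alternatives for differences between probe sets were chosen after seeing the data.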

Additional observations from a re-analysis of the deposited data

How the results depend on the processing

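The fall of Cplx2 kept its direction and stayed past adjusted p under 0.05 and past 2-fold in every alternative run. The number of members that rose, 5 as reported, was 1 after median centring, 1 with no filter, 0 without an intensity trend and 0 by the methods' t-test, and 0 to 1 when an array was left out. It was 4 to 5 in the other settings, except the replicate block. The related genes that rose, 4 as reported, numbered 2 with no filter, 1 without an intensity trend and 0 by the methods' t-test (5 at unadjusted p under 0.05), and 0 to 3 when an array was left out. Those that fell, 6 as reported, numbered 2, 2 and 0 (6 at unadjusted p under 0.05) in these settings and 1 to 4 when an array was left out. The 5 and 6 at unadjusted p under 0.05 by the methods' t-test were out of 57 related probe sets. By the same test 1870 of all 14791 were higher and 1772 lower. Over all tested probe sets, 1000 rose and 1147 fell without an intensity trend, against 1771 and 1744 as reported, and 4 and 14 by the methods' t-test. When an array was left out 650 to 1148 rose and 791 to 1342 fell. At 2-fold and unadjusted p under 0.05, 680 were higher and 563 lower with no filter, against 32 and 204, 8 and 114 with an offset of 50, and 10 were higher with a signal of at least 200. The difference between Cplx2 and Cplx1 was -1.60 with an offset of 50, against -1.67.

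The labels give both groups the replicate numbers 1 and 2 but no shared source, and the deviations of same-numbered arrays correlated at r = -0.11 over the tested probe sets. With the replicate block 0 members rose (5 at unadjusted p under 0.05, against 2675 of all 14791 tested) and 2 related genes rose. Of all 14791 tested probe sets, 1281 rose with the replicate block. With the crossed replicate block, chosen after seeing the data, 5 members rose and 1 fell, against 2069 and 1970 of all 14791.

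When an array was left out, the difference between the log2 fold changes of the Cplx1 probe sets ran from -0.0902 to 0.0603, turning positive without control replicate 2 and without stressed replicate 1 (0.02), and that between Nsf 1369689_at and 1372528_at from -0.0867 to 0.0142, turning positive without control replicate 1. In all other pairs the sign was kept. The cause of these shifts was not tested. The signal filter left out 3 of the 15 member probe sets, and each of their genes was tested at another probe set. With no filter all 15 were tested, and an unadjusted p under 0.05 was reached by 8 that were higher and 2 that were lower. Of all 31042 probe sets in that setting 3952 were higher and 3127 lower.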
